A study of Mus musculus with 4 samples.

Results

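The Trim30, Trim12 and Trim34 cluster is a run of tandem tripartite motif genes on mouse chromosome 7, read here as 8 genes (Trim34a, Trim5, Trim12a, Trim12c, Trim30b, Trim30c, Trim30a and Trim30d) of the 55450 genes in the annotation. The genes were chosen by name, and every accessible region overlapping a gene body or the 10 kb on either side of it was listed. This gave 22 of the 71243 union regions of the series, a union region being the merged span of all overlapping peaks of the 4 libraries. The windows of neighbouring genes overlapped and joined into 2 stretches of 91.0 and 189.0 kb, at chr7:104234457-104325466 and chr7:104328754-104517849 (mm10). Regions are numbered 1 to 22 along the chromosome, from Trim34a to Trim30d.

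ATAC-seq was used to ask where chromatin was open with and without histone H3.3. A transposase inserts sequencing adapters into open DNA, so that local pile-ups of reads, called peaks, mark accessible sites. The 4 libraries came from bone marrow-derived macrophages (BMDMs), which were grown from bone marrow of C57BL/6-background mice aged 8 to 10 weeks in medium with 20% L929-conditioned medium for 6 to 8 days, with day 7 BMDMs taken for ATAC-seq. WT BMDMs were homozygous for the floxed alleles of both H3.3 genes, H3f3a fl/fl and H3f3b fl/fl, and carried no Cre. H3.3 conditional knockout (cKO) BMDMs carried the same floxed alleles together with LysM cre/cre, a Cre knocked into the lysozyme gene Lyz2 that is active in myeloid cells. Each genotype had 2 biological replicates, and all libraries were from unstimulated cells as far as the labels tell. Because only cKO cells carried Cre, Cre and the loss of H3.3 cannot be told apart. Deletion of H3f3b was described as complete in some cases and partial in others, and cKO here means a library with that label.

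The deleted genes were read first, as a check of the labels. The floxed exon of H3f3a, exon 2 of transcripts H3f3a-201 and H3f3a-205, lay in a region at percentiles 5.02 and 19.1 in the WT lists (the rank of its peak area among all peaks of a list, from 0 to 100), without a peak in either cKO library. These WT peaks were weak, so that their absence in cKO is thin support for the label. The promoter region of H3f3a, outside the floxed exon, stood at 96.0 and 97.2 in the WT libraries and at 93.4 and 94.1 in the cKO libraries. At H3f3b, a region at chr11:116023771-116024892 stood at 94.2 and 95.5 in WT but still at 87.0 and 81.4 in cKO. A further H3f3b region stood at 23.7 and 34.3 in WT and had 28.7 and 42.5 in cKO. The paper describes loxP sites flanking all exons of H3f3b, but neither region is placed here relative to those exons or sites. These peaks in both libraries labelled cKO therefore do not show how complete the deletion of H3f3b was.

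TRIM proteins carry a RING finger, a B-box and a coiled coil, and many are ubiquitin ligases that act in antiviral defence. Trim5, Trim12a and Trim12c are the rodent relatives of primate TRIM5, which restricts retroviruses by recognising the capsid. Trim30a is known as a brake on NF-kB signalling downstream of Toll-like receptors, and Trim34a is a close relative of the TRIM5 group. Genes of this cluster are induced by interferon, and interferon-stimulated genes are commonly switched on through the interferon-stimulated response element (ISRE), a short DNA element in their promoters. The genes arose by tandem duplication, so that stretches of one gene recur almost letter for letter in another.

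The promoters of the cluster shared an ISRE core, here GAAA, any 2 bases and GAAA on either strand. RefSeq promoters (250 bases before to 50 bases after a start, GRCm38.p6, the assembly of mm10) were found for 8 of 8 genes, with 9 promoters in all because Trim30a had 2 starts. The core was present in 7 of these 9 promoters and in 3.44% of all 32851 promoters. The 7 matches are shown because they are the sequence that the gene starts of the cluster have in common. Each is printed 5′ to 3′ on the gene's strand with 10 bases on both sides, in lower case with the match in capitals. All 7 matches read GAAA on the opposite strand and so appear as TTTC.
Trim34a, chr7:104244457-104244486, forward strand: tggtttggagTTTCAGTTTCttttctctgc
Trim5, chr7:104288136-104288165, reverse strand: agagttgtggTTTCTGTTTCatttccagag
Trim12a, chr7:104315466-104315495, reverse strand: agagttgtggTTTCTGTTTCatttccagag
Trim12c, chr7:104353359-104353388, reverse strand: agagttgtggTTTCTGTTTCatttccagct
Trim30a, internal start, chr7:104446104-104446133, reverse strand: ttgtttttagTTTCTTTTTCtcagttcctg
Trim30a, outer start, chr7:104465210-104465239, reverse strand: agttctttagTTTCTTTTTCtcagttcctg
Trim30d, chr7:104507871-104507900, reverse strand: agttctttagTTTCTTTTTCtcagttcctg

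The windows of Trim5 and Trim12a were identical, as were those of Trim30d and of the outer Trim30a start. The first base of the match lay 49 bases upstream of the start in Trim5, 29 in Trim12c, 41 in Trim30d and 36 at the outer start of Trim30a. In Trim34a and Trim12a it lay 10 bases downstream of the start, and at the internal start of Trim30a it lay 2 bases downstream. The RefSeq promoters of Trim30b and Trim30c held no match, which says only that these letters are not in those windows. For Trim30b, the RefSeq start lies inside the gene as GENCODE draws it, and its RefSeq promoter overlapped no region. The internal start of Trim30a rests on RefSeq alone. In the GENCODE annotation used, the region there (region 16) holds no start and lies in an intron, 19017 bp from the nearest Trim start. Whole promoters were most alike between the outer Trim30a start and Trim30d (90.8% identity over the alignment), and between Trim5 and Trim12c (82.8%).

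Other elements were rarer or marked single gene groups. The PU.1 site (GAGGAAGT) and the C/EBP site (TTGCNNAA), each searched on both strands, were in the same 3 of 9 promoters, those of Trim5, Trim12a and Trim12c. Among all promoters, 3.2% held the PU.1 site and 10.8% the C/EBP site. The RUNX site (AACCACA) was in 4 of 9 promoters against 5.27% of all. In Trim5, Trim12a and Trim12c it overlapped the ISRE match. The AP-1 site (TGAGTCA) was in 0 of 9 against 5.2% of all. The palindromic GAS element (TTCNNNGAA) was in 1 of 9, that of Trim30c, against 8.3% of all. Promoters that are copies of one another share their motifs, so these counts do not come from 9 independent sequences.

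Across the cluster the cKO lists held more peaks and covered more DNA than the WT lists. WT replicates 1 and 2 had 15 and 16 peaks in the windows, and cKO replicates 1 and 2 had 19 and 21. The 2 genotypes did not overlap. The means were 15.5 ± 0.707 peaks in WT and 20.0 ± 1.41 in cKO (SD, n = 2 libraries each), a difference of 4.5 peaks (two-sided exact permutation test, p = 0.333). With 2 libraries against 2, 0.333 is the smallest p that this test can give. The covered length was 10672 and 11698 bp in the WT libraries and 14163 and 14482 bp in the cKO libraries. Its means were 11185 ± 725 bp and 14322.5 ± 226 bp (SD, n = 2), a difference of 3137.5 bp (exact permutation test, p = 0.333). The lists as a whole went the other way within each replicate number, with 55742 and 64939 peaks in WT and 51955 and 60884 in cKO. The cluster therefore held 0.0269% and 0.0246% of the WT lists and 0.0366% and 0.0345% of the cKO lists.

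**Figure D1:**
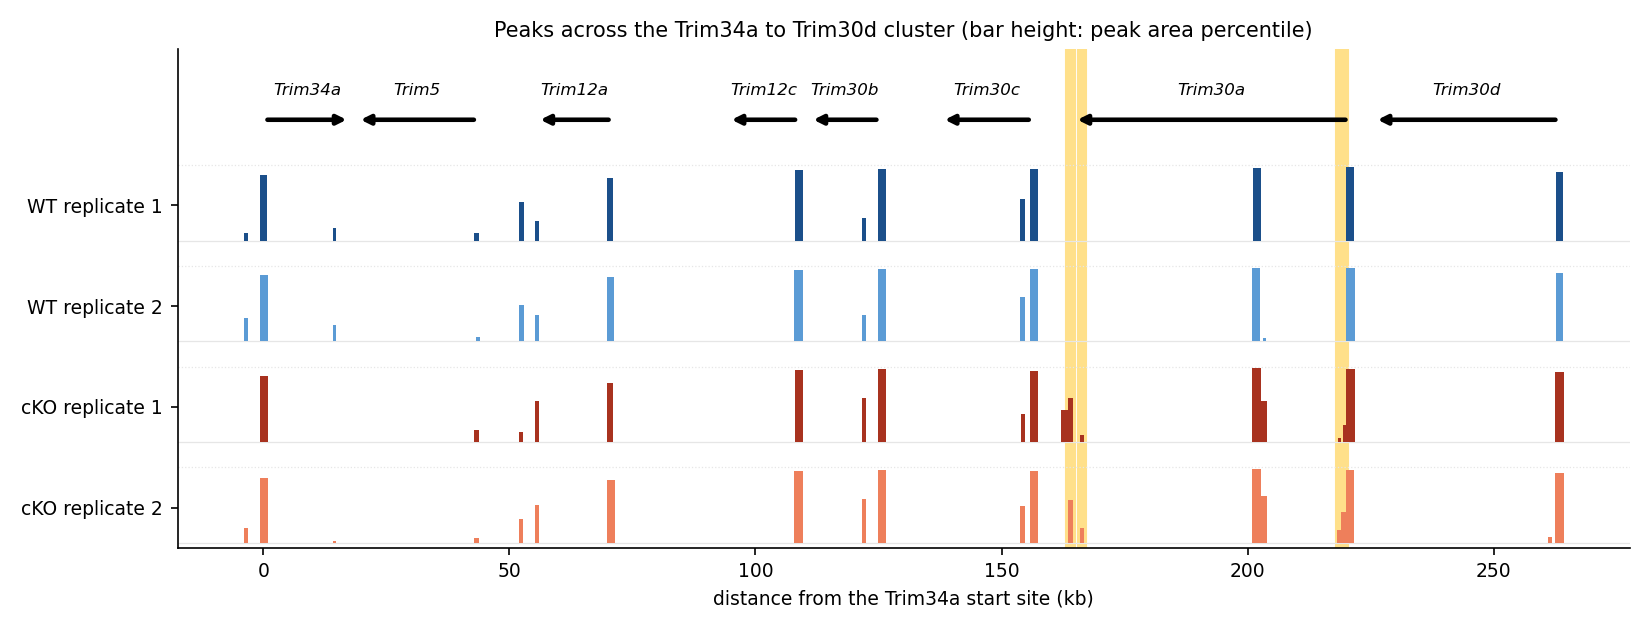
Peaks of the 4 libraries along the cluster, with the distance from the Trim34a start site in kb on the x axis and 1 row per library. Bar height is the percentile of the peak's area in its list (dotted line, percentile 100), bars are widened by 0.5 kb in all so that narrow peaks stay visible, arrows are the genes in their direction, and yellow bands mark the 4 gained regions, which lie at both ends of Trim30a.

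A region counted as called in a library if that library's list had a peak within it. Of the 22 regions, 13 were called in all 4 libraries. Another 4 were gained, meaning called in both cKO libraries and in neither WT library, against 3.72% of all union regions. Without WT replicate 2 or cKO replicate 1, 5 cluster regions were gained, against 7.93% and 9.16% of all. None (0 of 22) was lost, the reverse pattern with both WT libraries called and no cKO library, against 7.25% of all union regions. The other 5 were called in 1 to 3 libraries in another pattern. Peak strength is given as a percentile, the rank of a peak's area (the authors' signal, the area under its significance curve) among all peaks of the same list, from 0 for the weakest to 100 for the strongest. A percentile compares a peak with the rest of its own library and is not an absolute level.

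Trim30a held all 4 gained regions in its window, which no other gene of the cluster did. Trim30a lies on the reverse strand at chr7:104409025-104465193 (ENSMUSG00000030921.17, 56.2 kb). Its window had 3 and 5 peaks in the WT libraries and 9 and 8 in the cKO libraries. Covered length was 3296 and 3709 bp in WT, against 7191 and 6050 bp in cKO. Trim30c and Trim30d, whose windows run into that of Trim30a, shared 2 of the gained regions each. In all, 3 of 8 genes of the cluster had 1 or more gained regions, against 8.27% of 21951 protein-coding genes, and the 3 share their regions. The number of 4 gained regions was reached by 0.137% of protein-coding genes, 30 in all including Trim30a. The median length of those 30 genes was 113.0 kb, against 17.4 kb for all protein-coding genes, and 9 of the 30 were shorter than Trim30a.

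The strongest gained region, region 14 (chr7:104408217-104408762), lay between genes, just beyond the 3′ end of Trim30a. Its peaks stood at percentiles 58.2 in cKO replicate 1 and 56.5 in cKO replicate 2, with widths of 528 and 545 bp, and neither WT library had a peak there. Both cKO values were close to each other, at 57.4 ± 1.22 (SD, n = 2). Among all 2653 gained regions of the series the median was 19.0, and 4.37% stood at or above region 14. Next to it, region 13 (chr7:104406760-104408108) was called in cKO replicate 1 only, at percentile 42.0 and 1349 bp wide. Of region 13, 89.2% was repeat sequence (soft-masked in the assembly).

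Region 15 (chr7:104410647-104410981) lay in exon 8 of transcript Trim30a-201, the last exon, in its 3′ untranslated part. It was called at percentiles 9.43 and 19.0 in the cKO libraries. It held an ISRE match at -65 bases and an AP-1 match at -14 bases from the summit, counted along the chromosome. These are shown because no other region of the cluster held both within 100 bases of its summit.
region 15, ISRE core, chr7:104410662-104410691, forward strand: aaaggccctcTTTCTTTTTCtctggggctt
region 15, AP-1 site, chr7:104410712-104410740, forward strand: attgttcaccaTGAGTCAttcttttgact

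The other gained pair lay in the first intron of Trim30a, with summits 2112 bp (region 18) and 1070 bp (region 19) downstream of its outer start. Region 18 (chr7:104462952-104463176) stood at percentiles 4.87 and 16.4 in cKO replicates 1 and 2. Region 19 (chr7:104463620-104464252) stood at 23.2 and 40.3. Regions 15 and 18 were weak peaks: 65.5% and 77.6% of all gained regions stood at or above them, against 23.2% for region 19. The area of the weakest peak, 222.0 in region 18 of cKO replicate 1, was near the caller's limit of 200. A WT site just under that limit would be missing from its list.

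Region 17 (chr7:104447347-104448222), in an intron of Trim30a, missed the rule for gained regions because of a single weak WT peak. WT replicate 2 had a peak at percentile 4.24 and 253 bp wide, and WT replicate 1 had none. The cKO libraries stood at 54.0 and 62.5, with widths of 876 and 708 bp. Both cKO values were far above the WT value. It lies next to region 16, at the internal start of Trim30a, and 49.8% of it was repeat sequence.

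Over 50-base stretches, the gained sequences were mostly particular to their place. By this measure, 3 of the 4 gained regions were found nowhere else in the genome, and the fourth, region 19, was 98.1% unique. They were not poor in repeat sequence, which made up 16.3%, 16.4%, 40.4% and 53.6% of regions 14, 15, 18 and 19. The median was 28.4%, against 11.2% for all gained regions. Region 18 had a diverged copy in region 21 (chr7:104505753-104505959), in an intron of Trim30d. The copies were 92.7% identical over 205 aligned columns, and region 21 was called in cKO replicate 2 only, at percentile 7.2. Both held the AP-1 site. The bases within 100 of the summits of these copies and of region 14 are given on the forward strand of mm10, with motif matches in capitals (here only AP-1, which reads TGACTCA on this strand).
region 14, chr7:104408322-104408522: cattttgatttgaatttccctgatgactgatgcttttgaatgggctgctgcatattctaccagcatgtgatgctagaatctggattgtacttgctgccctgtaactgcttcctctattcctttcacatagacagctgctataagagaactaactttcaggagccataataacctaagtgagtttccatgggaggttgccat
region 18, chr7:104462981-104463181: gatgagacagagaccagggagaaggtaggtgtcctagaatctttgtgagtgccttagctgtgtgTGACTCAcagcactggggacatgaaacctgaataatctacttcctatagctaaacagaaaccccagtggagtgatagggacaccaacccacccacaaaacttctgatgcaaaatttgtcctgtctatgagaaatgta
region 21, chr7:104505768-104505968: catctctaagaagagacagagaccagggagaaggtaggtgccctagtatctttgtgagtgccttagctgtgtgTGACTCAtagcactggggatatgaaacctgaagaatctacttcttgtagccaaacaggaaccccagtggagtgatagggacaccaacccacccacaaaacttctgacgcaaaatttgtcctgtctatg

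Region 14 held none of the 6 motifs searched. The AP-1 site was within 100 bases of the summit in 2 of the 4 gained regions of the cluster (15 and 18). Of all gained regions, 22.6% held it. It was in 0 of the 13 regions called in all 4 libraries, against 14.3% of all such regions. Of all 22 regions of the cluster, 3 held it, near the share of 13.5% of all union regions. The ISRE core was near the summit in 6 of 22 regions against 3.9% of all union regions. It was near the summit in 5 of the 13 called in all 4 (regions 2, 6, 8, 16 and 22), against 4.03% of all such regions. Regions 2 and 6 are copies of each other, as are 16 and 22, so these are not 5 independent sequences.

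**Figure D2:**
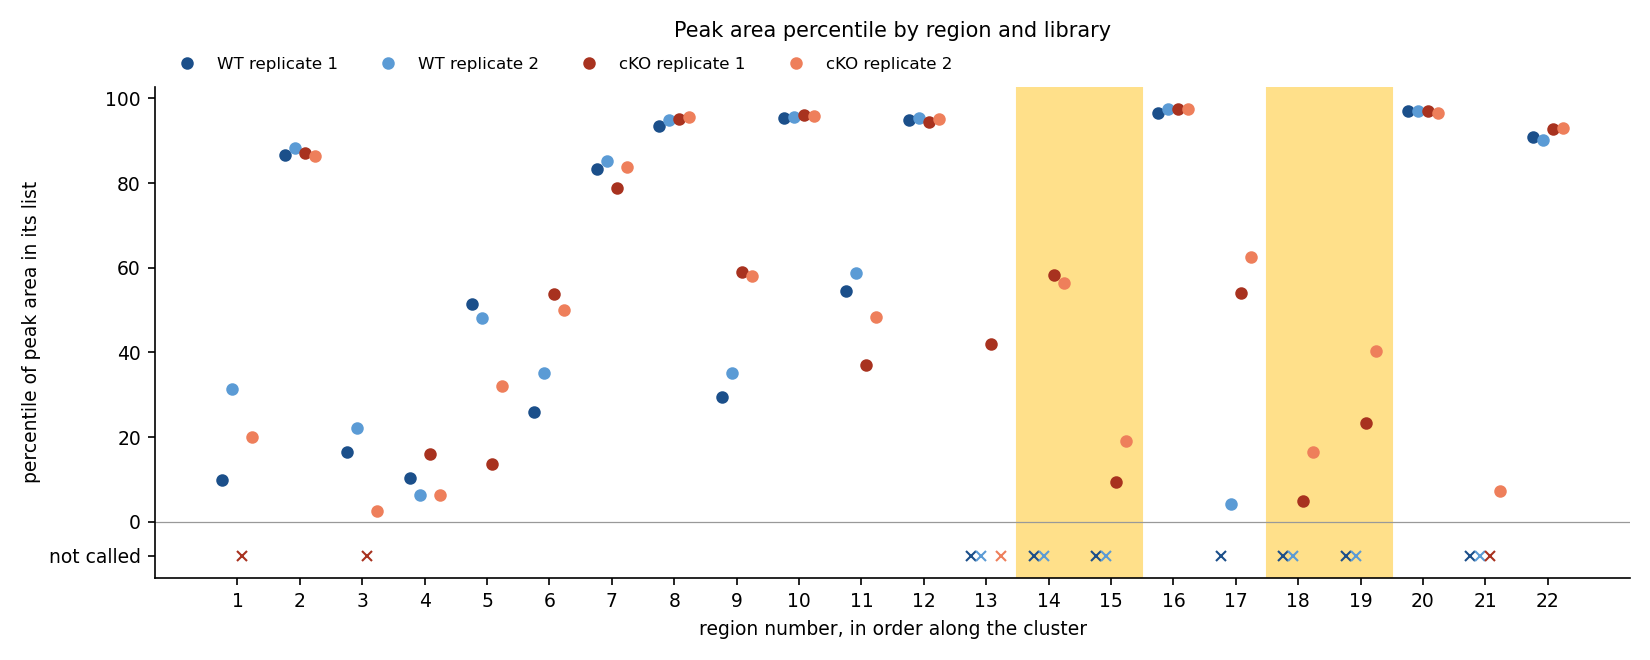
Percentile of peak area in its own list (y axis) for each of the 22 regions in order along the cluster (x axis), with 1 point per library and a cross where the library had no peak. Yellow bands mark gained regions 14, 15, 18 and 19, and the regions above percentile 78 in every library lie at gene starts (region 16 at a RefSeq start only).

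The regions at the gene starts were called in both genotypes, most of them near the top of each list. Regions called in all 4 libraries had a median percentile of 87.1 in the cluster (mean over the libraries), against 59.7 for all such regions. The cKO mean minus the WT mean had a median of 0.536 points in the cluster and -1.1 points over all 44820 such regions. In 6 of the 13 the percentile was higher in both cKO libraries than in both WT libraries, against 22.2% of all such regions. In 3 of the 13 it was lower in both, against 35.1%. These background shares depend on the length of the lists and on single libraries. With lists cut to equal length, 6 of 12 regions were higher, against 36.8% of all. Without WT replicate 2, 6 of 13 were higher against 41.4%, and without cKO replicate 1, 6 of 15 were higher against 38.7%, so that the cluster was then close to the background. In the comparison of all 4 full lists, the other 4 regions overlapped.

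By peak area, the starts of Trim30a ranked highest in the cluster. By the −log10 p at the summit, the Trim12c start (region 8) was above both, with WT at 8.57 and 9.35 and cKO at 9.09 and 9.96. At the outer start, region 20 (chr7:104464655-104466050) stood at 97.1 and 97.1 in WT and at 97 and 96.6 in cKO, a difference of -0.337 points. At the internal start, region 16 (chr7:104445562-104446931) stood at 96.5 and 97.4 in WT and at 97.5 and 97.5 in cKO, a difference of 0.536 points. The shift at the internal start was smaller than the SD of its WT values (0.636 points). The outer start was lower in both cKO libraries, with an SD of 0.253 points between them, and near the top of a list percentiles can move little.

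Trim30d, the gene next to it, had the largest difference among the promoters that stood higher in cKO. Region 22 (chr7:104507171-104508440) stood at 91.0 and 90.2 in the WT libraries and at 92.7 and 93.0 in the cKO libraries. The genotypes did not overlap, with 90.6 ± 0.612 in WT and 92.8 ± 0.164 in cKO (SD, n = 2). The peak was also broader in cKO, at 1213 and 1265 bp against 985 and 989 bp. The upstream 150 bases of Trim30d are shown beside those of the outer Trim30a start, on the reverse strand, because these near copies differed in direction, with Trim30a at -0.337 points and Trim30d at 2.23 points. Capitals mark the ISRE core.
Trim30a, chr7:104465194-104465343: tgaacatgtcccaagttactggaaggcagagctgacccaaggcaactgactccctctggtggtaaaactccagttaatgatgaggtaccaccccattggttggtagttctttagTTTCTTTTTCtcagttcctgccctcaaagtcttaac
Trim30d, chr7:104507850-104507999: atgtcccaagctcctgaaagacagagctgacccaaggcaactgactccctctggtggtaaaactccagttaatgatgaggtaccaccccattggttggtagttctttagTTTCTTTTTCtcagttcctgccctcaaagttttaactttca

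Trim30b and Trim12c, which lie side by side, also stood slightly higher in cKO. The Trim30b promoter, region 10 (chr7:104369578-104370672), stood at 95.3 and 95.6 in WT and at 96.2 and 95.9 in cKO. The Trim12c start, region 8 (chr7:104352516-104353919), stood at 93.6 and 95 in WT and at 95.1 and 95.7 in cKO. The differences were 0.619 and 1.13 points. In Trim30c, whose protein is a further member of the Trim30 group, the promoter (region 12, chr7:104400524-104401590) overlapped between genotypes, with WT at 95 and 95.4 and cKO at 94.5 and 95.2.

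Trim34a and Trim12a promoters overlapped between genotypes too. Region 2 (chr7:104244083-104245093) at Trim34a stood at 86.7 and 88.4 in WT and at 87.1 and 86.4 in cKO. Region 7 (chr7:104314633-104315570) at Trim12a, where the antisense gene Gm15133 also starts, stood at 83.4 and 85.3 in WT and at 78.8 and 83.7 in cKO. ATAC-seq reads carry no information on which of these overlapping starts is used.

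Trim5 stood apart from its close relatives. The region at its start, region 4 (chr7:104287581-104288214), was called in all 4 libraries but near the bottom of each list, at 10.3 and 6.32 in WT and at 16.1 and 6.35 in cKO. The genotypes overlapped. Region 4 was 93.7% identical to region 7 of Trim12a and 91.4% to region 8 of Trim12c over their aligned parts, yet those stood above percentile 78 in every library. Only 62.2% of the 50-base stretches of region 4 occurred once in the genome, the lowest share in the cluster, and all of its repeats lay within the cluster. How reads that fit several places were assigned is not given in the sources used here, so the levels of Trim5, Trim12a and Trim12c may share reads. The ISRE match of Trim5 lay inside a peak in WT replicate 2 only, and that of Trim12a in replicate 2 of both genotypes. The same held for the annotated 5′ ends of these genes, so the start of Trim5 itself lay in no cKO peak. The other 5 promoter matches lay inside peaks in all 4 libraries.

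**Figure D3:**
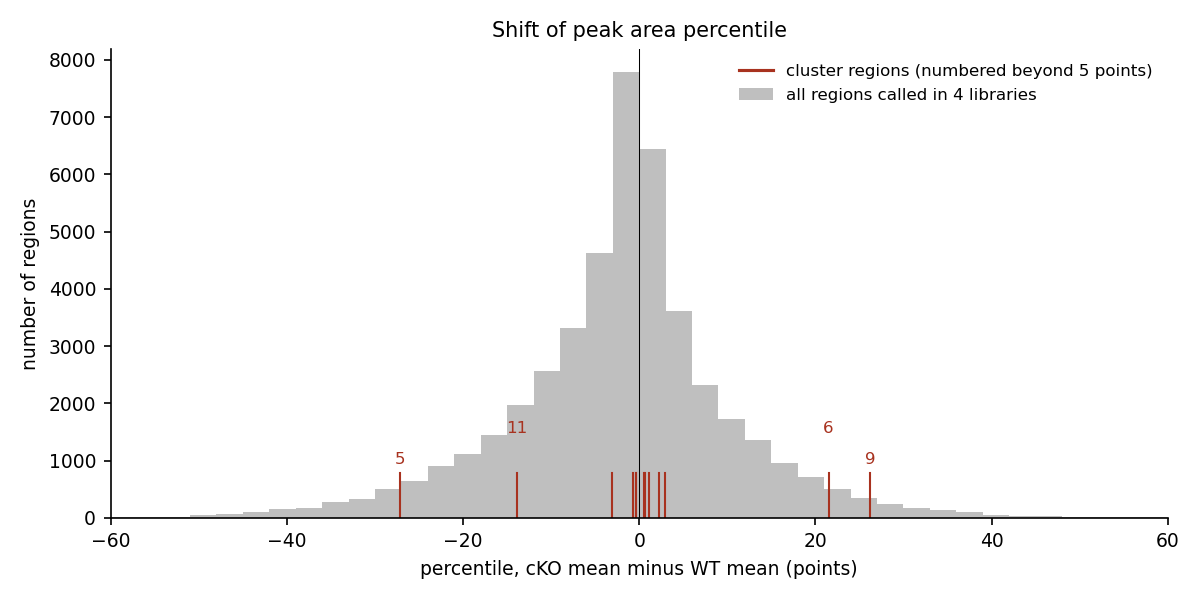
Number of regions (y axis) by the cKO mean minus the WT mean of the peak area percentile (x axis, points, bins of 3) for the regions called in all 4 libraries (grey), with the 13 cluster regions as red marks. Regions 6 and 9 lie at 21.5 and 26.2 points, regions 5 and 11 at -27.1 and -13.9, and the other 9 lie within 5 points of 0.

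Away from the starts the differences were larger and went both ways. Region 9 (chr7:104366332-104366690), in an intron of Trim30b, stood at 29.5 and 35.1 in the WT libraries and at 58.9 and 58.1 in the cKO libraries. The genotypes did not overlap, and the difference of 26.2 points was the largest positive one among the 13 regions called in all 4 libraries. Its width was 257 and 241 bp in WT and 327 and 359 bp in cKO. It was fully unique in the genome over 50-base stretches. Its summit window is shown because it held both myeloid sites, C/EBP (first capitals) and PU.1 (second), each on the reverse strand. The PU.1 match lay 9 bases from the summit. Region 8, at the Trim12c start, also held both, with a difference of 1.13 points. Each site was in 2 of the 13 regions, against 12.1% (C/EBP) and 11.2% (PU.1) of all regions called in 4 libraries.
region 9, chr7:104366446-104366646, forward strand: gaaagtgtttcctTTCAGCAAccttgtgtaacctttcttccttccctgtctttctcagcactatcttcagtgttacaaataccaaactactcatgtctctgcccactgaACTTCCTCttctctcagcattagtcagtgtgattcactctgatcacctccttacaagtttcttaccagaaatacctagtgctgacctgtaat

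Region 6 (chr7:104299977-104300301), in an exon at the 3′ end of Trim12a, stood at 25.8 and 35.2 in WT and at 53.9 and 50 in cKO, a difference of 21.5 points. It was a 91.7% identical copy, over 325 columns, of the Trim34a promoter (region 2), and it carried the same ISRE letters.
region 6, chr7:104300187-104300216, forward strand: tggtttggagTTTCAGTTTCtcccccacac
The genotypes did not overlap in region 6, while they overlapped in its copy, region 2. Of the stretches of region 6, 97.8% were unique.

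Regions 5 and 11 stood lower in cKO. Region 5 (chr7:104296584-104297255), between Trim5 and Trim12a, was at 51.5 and 48.2 in WT and at 13.6 and 32.0 in cKO. The difference was -27.1 points, with 49.9 ± 2.34 in WT and 22.8 ± 13 in cKO (SD, n = 2). Region 11 (chr7:104398505-104399025), in an intron of Trim30c, was at 54.6 and 58.8 in WT and at 37.1 and 48.4 in cKO, a difference of -13.9 points. In both regions cKO replicate 1 was the lowest library, and the genotypes did not overlap.

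Region 1 (chr7:104240729-104241186), upstream of Trim34a, was a copy of region 5 with 95.4% identity over 452 columns. It stood at 9.73 and 31.3 in WT, had no peak in cKO replicate 1 and stood at 20.1 in cKO replicate 2. Region 3 (chr7:104258773-104259035), in an intron of Trim34a, had the same calls, with WT at 16.5 and 22.1 and cKO replicate 2 at 2.52. These were the regions of the cluster that cKO replicate 1 lacked while both WT libraries had them. Of region 3, 76.4% was repeat sequence.

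Counted together, 14 of the 22 regions had a copy elsewhere in the cluster (at least 80% identity over at least 100 aligned columns, 231 pairs compared), in 5 groups. The first group was the 5 starts of the Trim30 genes (regions 10, 12, 16, 20 and 22, with region 16 a start in RefSeq only), 80.9% to 91.1% identical. The second was the starts of Trim5, Trim12a and Trim12c (regions 4, 7 and 8), and the others were the pairs 1 and 5, 2 and 6, and 18 and 21. In the Trim30 group, 3 of 5 were higher in cKO (10, 16 and 22), 1 was lower (20) and 1 overlapped (12). Of all regions called in 4 libraries, 22.2% were higher and 35.1% lower, and 5 copies are too few and too alike to set against these shares. Gained regions 14, 15 and 19 had no such copy. The share of unique 50-base stretches ranged from 62.2% to 100% over the 22 regions, with a median of 97.2%.

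**Figure D4:**
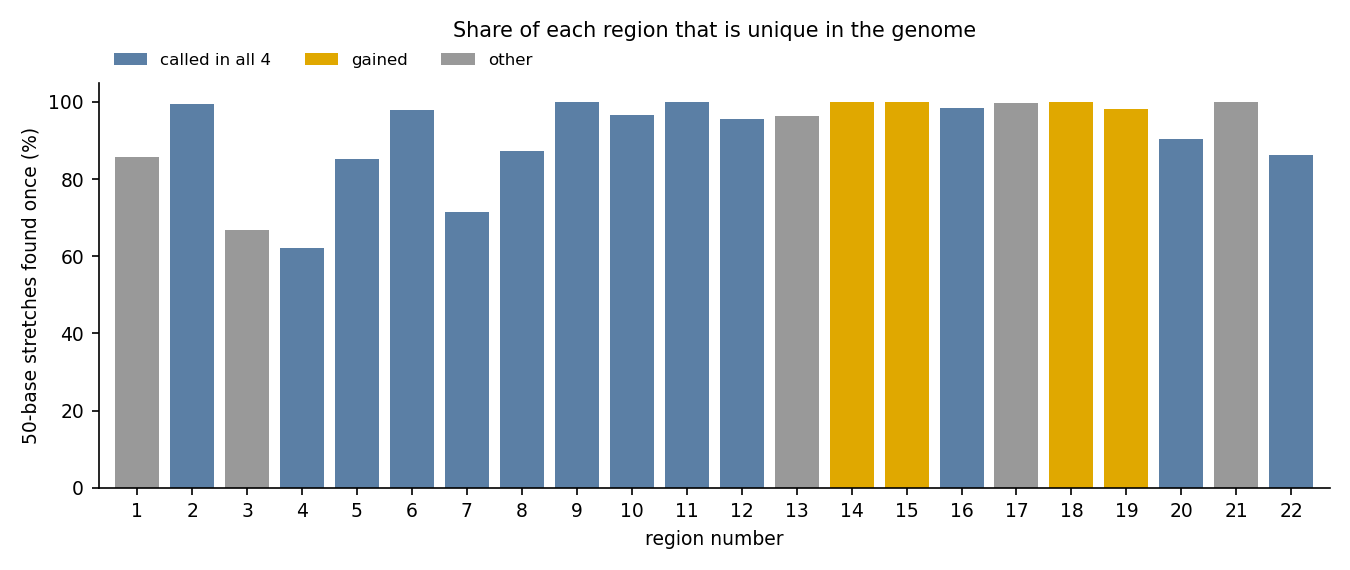
Share of the 50-base stretches of each region that occur once in the genome (y axis, %) by region number (x axis), coloured by how the region was called. The gained regions lie between 98.1% and 100%, and the lowest bar is region 4 at the Trim5 start with 62.2%.

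Peak widths at the cluster were more often larger than smaller in cKO. The covered width was larger in both cKO libraries than in both WT libraries in 8 of 13 regions, against 16.3% of all regions called in 4 libraries. In regions 2, 4, 10 and 20 the margin was a few bases, as in region 4 with 423 bp in WT replicate 1 and 431 bp in cKO replicate 2. The width counts were not repeated with lists of equal length or without single libraries. It was smaller in both in 3 of 13 (regions 5, 11 and 12), against 36.9%. The median change was 41.0 bp in the cluster and -20.5 bp over all such regions. At the internal start of Trim30a (region 16) the widths were 1091 and 1178 bp in WT and 1369 and 1366 bp in cKO. At its outer start (region 20) they were 1138 and 1236 bp in WT and 1350 and 1246 bp in cKO. Region 20 was thus among the wider regions, although its percentile was lower.

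**Figure D5:**
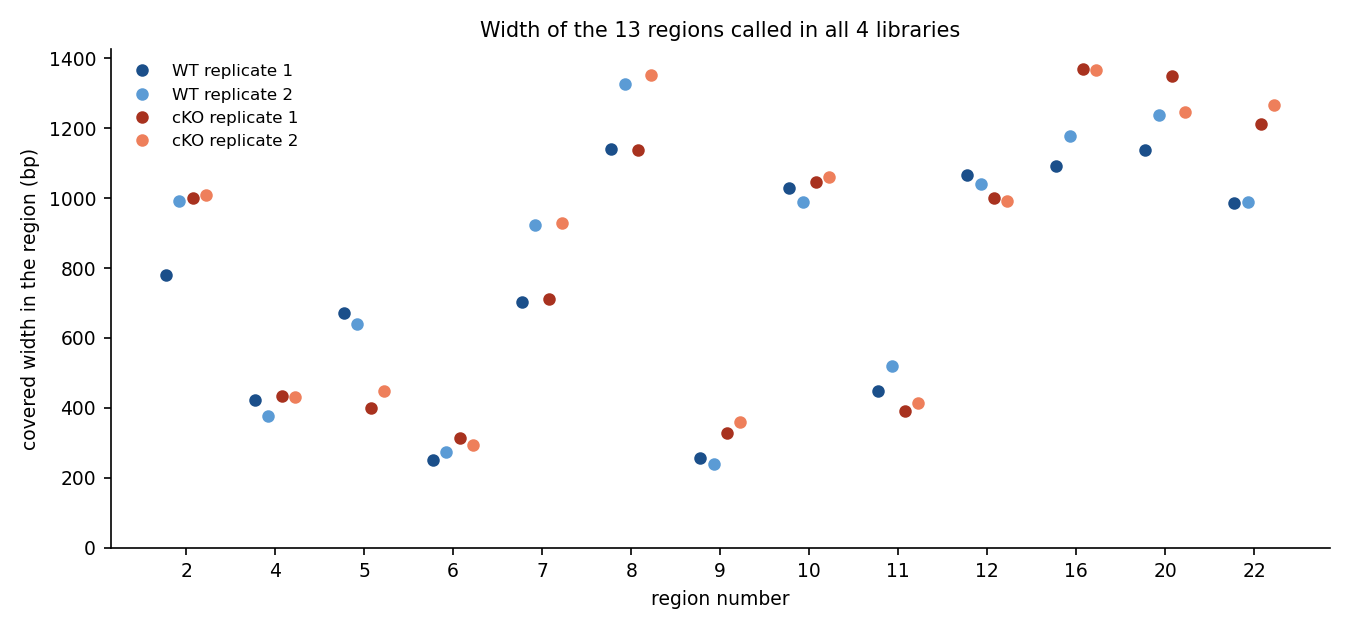
Covered width in bp (y axis) of the 13 regions called in all 4 libraries (x axis, region number), with 1 point per library. Both cKO points lie above both WT points in 8 regions, most widely in regions 16 and 22, and below them in regions 5, 11 and 12.

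Long parts of the cluster were without any peak in the 4 lists. The stretch from region 20 to region 21, which holds most of Trim30d, was 39.7 kb long. The stretches between regions 7 and 8, between 15 and 16, and between 3 and 4 were 36.9, 34.6 and 28.5 kb long. Beyond the Trim30d promoter the next region was 94.8 kb away. Trim34b, an annotated relative within the cluster, had no region in its window. Trim6, on the other side of Trim34a, had a gained region (chr7:104216186-104216507) at 10.6 and 29.9 in the cKO libraries. Its promoter region (chr7:104218653-104219591) was at 60.8 and 51.8 in WT and at 62.3 and 73.8 in cKO.

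Other Trim genes were counted in the same way. Outside the 8 genes, 61 Trim genes held 203 regions in their windows, of which 12 (5.91%) were gained and 10 (4.93%) were lost. Gained regions lay at Trim6, Trim7, Trim11, Trim17, Trim21, Trim25, Trim28, Trim41, Trim66 and Trim69, with 3 at Trim25. Lost regions lay at Trim3, Trim8, Trim13, Trim16, Trim29, Trim31, Trim37, Trim67 and Trim69. Of the 125 regions called in all 4 libraries, 29.6% were higher and 31.2% were lower in both cKO libraries. Each region was counted once, and regions in the cluster's windows, such as those Trim6 shares with Trim34a, were left out. In the lists of names, neighbouring Trim genes can share a region.

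Marker genes were checked for other cells. Of 8 macrophage markers, 7 had a promoter peak in every library, Spi1 having none in the window used. Markers of T cells, erythroid cells and fibroblasts had 0 of 4 each. B cell markers had 1 of 4 (Ms4a1), NK cell markers 1 of 4 (Klrb1c) and neutrophil markers 1 or 2 of 4 (Camp, Ly6g). Several markers did not overlap between genotypes. Of all regions called in 4 libraries, 22.2% were higher and 35.1% lower in both cKO libraries, so such a pattern is common. Ms4a1 stood at 3.56 and 23.5 in WT and at 28.5 and 35.5 in cKO, and Ly6g had peaks in the cKO libraries only, at 30.3 and 17.8. Klrb1c went the other way, with 70.4 and 75.5 in WT and 33.5 and 46.3 in cKO. Camp, a neutrophil marker like Ly6g, was lower in cKO, with 29.1 and 29.5 in WT and a peak only in cKO replicate 2, at 10.2. Of the macrophage markers, Csf1r had 73.7 and 85.3 in WT against 56.4 and 61.4 in cKO, and Mertk had 89.3 and 92.8 against 73.9 and 79.1. Cd68 was higher in cKO, with 91.2 and 89.7 in WT against 92.7 and 92.7. Adgre1, Itgam, Cd14 and Fcgr1 overlapped. The part of these in the cluster's results was not tested. In a bulk library, more cells with an open site and more opening per cell cannot be told apart.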

How the data were processed

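ATAC-seq libraries from WT and cKO BMDMs (2 each) were compared, with groups and replicate numbers from the titles. The authors aligned paired reads to mm10 with Bowtie2 2.5.1 and called peaks in each library with Genrich at default settings; filters on reads are not given in the sources used here. From the deposited lists, the peak signal (area) was ranked within its list. The −log10 p-value at the summit was deposited too and served as an alternative ranking, and the deposited score, capped at 1000 for 82.6% to 87.2% of peaks, was only described. The q-value column held -1.

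Peaks overlapping by 1 bp were merged in Python 3.11.15 (pandas 2.3.3, numpy 2.4.6) and annotated with GENCODE M21 basic. Promoter means 1 kb before to 100 bp after a start. Read depth is unknown, so no counting interval can be given. The permutation p-values only place the observed difference among the possible assignments of labels to libraries and do not measure the spread between libraries. The independence of the libraries rests on the label "biol rep". The scripts were tested on simulated lists. Motifs were searched within 100 bases of the summit of a region.

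The 8 genes were all named. The other named genes were Trim genes with a gained or lost region, Trim34b, Trim6, H3f3a, H3f3b and markers. Gm15133 was named because it starts in region 7. Members, lists and motifs were chosen with earlier results of these data known, and the comparisons of widths, counts of gained regions per gene and copies between regions were added after values were seen.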

Additional observations from a re-analysis of the deposited data

How the results depend on the processing

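The differences in peaks and covered length kept their direction under all 9 alternatives each, and the exact permutation p could not fall below 0.333 in any. The differences ranged from 2.5 to 5.5 peaks and from 1874.5 to 3650.5 bp, and without single libraries from 3.5 to 5.5 peaks and 2624.5 to 3650.5 bp. The labels do not say that replicate numbers mark a shared litter or day. Deviations of same-numbered libraries correlated over the 44820 regions called in 4 (r = 0.295, with 2 pairs), and with the replicate block the differences were 4.5 peaks and 3137.5 bp (exact sign permutation, p = 0.5, the smallest possible).

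The number of gained regions was 4 or 5 under every alternative, but among peaks above the median area of their list only region 14 of the 4 was still gained, and with a cover of 50% or more region 19 was not. In lists of equal length (51955 peaks) all 4 were kept, but 7.04% of all regions were then gained. The number of lost regions moved from 0 to 1 among peaks above the median area and to 1 in lists of equal length, against 7.06% and 7.3% of all regions. It ranged from 0 to 2 without single libraries, with 2 without cKO replicate 2 (regions 1 and 3), where 13.4% of all regions were lost. Regions higher in cKO numbered 4 to 8, while the share of all regions called higher ranged from 22.1% (peaks above the median area) to 41.4% (without WT replicate 2). Regions lower in cKO moved from 3 to 1 of 8 among peaks above the median area, against 36.5% of all. They ranged from 3 to 6 without single libraries. Without WT replicate 1 they were 6 of 14, against 54.5%. Without cKO replicate 1 they were 5 of 15 against 38.7%, and without cKO replicate 2 they were 5 of 13 against 56.6%. Read depth, which is unknown, limits all calls near the caller's limit.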
